A study of Mus musculus with 17 samples.

Results

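The transcripts of the mitochondrial genome were described in mouse pancreatic islets, taking every gene whose symbol starts with mt-. Of 78239 Ensembl gene identifiers in the deposited counts, 37 met this rule, namely 13 mRNAs, 2 rRNAs and 22 tRNAs, all on chromosome M. The islets came from 17 male mice in 6 groups, measured as total RNA in 2 tables that were normalised and tested separately. In the first table, wildtype littermates (labelled Pax4 WT, C57BL6/N) and mice homozygous for a knock-in allele of *Pax4* (labelled Pax4 HH, hereafter *Pax4* R192H, carrying R200H in the mouse protein) were fed a standard chow diet (SCD) until 12 weeks of age, or a high-fat diet (HFD) for 4 weeks until 16 weeks of age, with 3 mice per group. In the second table, *Pax4* βiKO mice (labelled Pax4-BiKO, floxed *Pax4* with Pdx1-CreERT2, n = 3) and controls (floxed *Pax4* without Cre, n = 2) had both received tamoxifen and were fed an HFD for 8 weeks until 20 weeks of age. PAX4 is a transcription factor of the islet lineage, and Pdx1-CreERT2 is driven by a promoter that is active in β cells and is not restricted to them. Diet and age changed together in the first table and cannot be told apart. The labels call the mice biological replicates, and nothing in them says whether islets were pooled between mice.

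Mitochondrial DNA is transcribed from both strands into long precursor RNAs, from which tRNAs are cut out and the rRNAs and mRNAs between them are released. The mRNAs encode the core subunits of the respiratory chain and of ATP synthase, the rRNAs form the mitochondrial ribosome, and every other protein of the organelle is encoded in the nucleus. In β cells this machinery links glucose metabolism to ATP production and insulin release. On the strand whose precursor carries most genes lay 12 mRNAs, both rRNAs and 14 tRNAs, and on the opposite strand lay mt-Nd6 and 8 tRNAs.

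The nuclear genome holds copies of mitochondrial DNA, which share sequence with several of these genes. A search of GENCODE M21 gene models (build GRCm38) found 17 nuclear models that matched a mitochondrial gene at 90% identity or more over at least 100 bases. Of these, 7 were near-identical pseudogenes (at least 99% identity over at least 95% of the pseudogene), all on the minus strand of a single block of 4663 bases at chr1:24611535-24616197. They were Gm28437 (a copy of mt-Co3), Gm28661 (mt-Co2), Gm29216 (part of mt-Co1), Gm28438 (mt-Nd3), Gm10222 (mt-Nd4l), Gm10925 (mt-Atp6) and Gm28439 (part of mt-Nd4), and 5 of them were identical to the mitochondrial gene at every aligned base. The first bases of the mt-Co3 and mt-Co2 pairs are shown because these copies held the most counts. No base differs within either pair, so a read inside them does not tell the gene from its copy.
mt-Co3, chrM:8607-8666, plus strand: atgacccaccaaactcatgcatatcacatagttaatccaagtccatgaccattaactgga
Gm28437, chr1:24613912-24613971, minus strand: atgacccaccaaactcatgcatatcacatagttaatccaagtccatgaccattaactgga
mt-Co2, chrM:7013-7072, plus strand: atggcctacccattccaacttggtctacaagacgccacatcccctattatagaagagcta
Gm28661, chr1:24615506-24615565, minus strand: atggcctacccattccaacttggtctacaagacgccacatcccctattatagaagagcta

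The mt-Nd3 and mt-Co1 pairs each differed at 1 base of the aligned stretch, printed here in capitals. Of the 492 bases of Gm29216, 483 were aligned to mt-Co1. Positions count from 1 at the 5′ end of the mitochondrial gene, and the mitochondrial base is given first: T3C in Gm28438 and A1066T in Gm29216.
mt-Nd3, chrM:9459-9486, plus strand: atTaacctgtacactgttatcttcatta
Gm28438, chr1:24613092-24613119, minus strand: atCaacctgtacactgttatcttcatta
mt-Co1, chrM:6390-6418, plus strand: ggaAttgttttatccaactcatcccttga
Gm29216, chr1:24616160-24616188, minus strand: ggaTttgttttatccaactcatcccttga

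Mitochondrial genes also share bases with each other. The longest shared stretch, of 43 bases, belongs to mt-Atp8 and mt-Atp6, which encode ATP synthase subunits. It is printed in capitals with 20 bases of each gene around it, since reads inside it can be counted for either gene.
mt-Atp8 and mt-Atp6, chrM:7907-7989, plus strand: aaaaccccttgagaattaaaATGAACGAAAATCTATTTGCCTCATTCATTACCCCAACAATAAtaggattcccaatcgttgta

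The share of all counts that fell on the 37 genes was low and lowest in *Pax4* R192H mice on an HFD. It was 0.72%, 1.15% and 1.32% in the wildtype mice on SCD (1.06% ± 0.31, SD, n = 3), and 0.91%, 0.99% and 0.78% in *Pax4* R192H mice on SCD (0.89% ± 0.10, n = 3). On HFD it was 0.50%, 0.68% and 0.60% in wildtype (0.59% ± 0.093, n = 3) and 0.34%, 0.41% and 0.46% in *Pax4* R192H mice (0.40% ± 0.064, n = 3). The HFD and SCD groups did not overlap in either genotype, nor did the genotypes on HFD, whereas the genotypes on SCD overlapped. On the same scale, the share of the library total, 19.9% of all tested genes were lower without overlap on HFD than on SCD in wildtype and 56% in *Pax4* R192H mice, and 31.2% were lower without overlap in *Pax4* R192H than in wildtype mice on HFD. A lower share was thus common among genes in these comparisons. In this bulk RNA, fewer cells of a type and less mitochondrial RNA per cell cannot be told apart.

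The total itself moved with these groups. In the first table, 2 rows without a name in GENCODE M21 (ENSMUSG00000118841 and ENSMUSG00000118866) took much of each mouse's counts, with 36.2% to 46.4% on SCD and 43.7% to 53.3% on HFD. With these rows left out of the total, the share was 1.34%, 2.01% and 2.06% in wildtype on SCD and 0.88%, 1.34% and 1.19% in wildtype on HFD, and 1.46%, 1.59% and 1.46% against 0.69%, 0.87% and 0.91% in *Pax4* R192H mice. The diets then still did not overlap in *Pax4* R192H mice and nearly touched in wildtype mice, and the genotypes on HFD overlapped. The part of these rows in the result was not tested further.

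In the second table the share was 2.51% and 3.66% in the controls (3.08% ± 0.81, n = 2) and 2.52%, 3.57% and 3.25% in *Pax4* βiKO mice (3.11% ± 0.54, n = 3), and the groups overlapped. The same 2 unnamed rows held 5.40% to 6.49% of the counts there. Totals per mouse ran from 24268157 to 42679645 counts in the first table and from 28618835 to 31887537 in the second. At this depth the Wilson 95% interval of each share was at most 0.0069 percentage points to either side, which covers counting error only. The plot of these shares sets both denominators side by side.

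**Figure D1:**
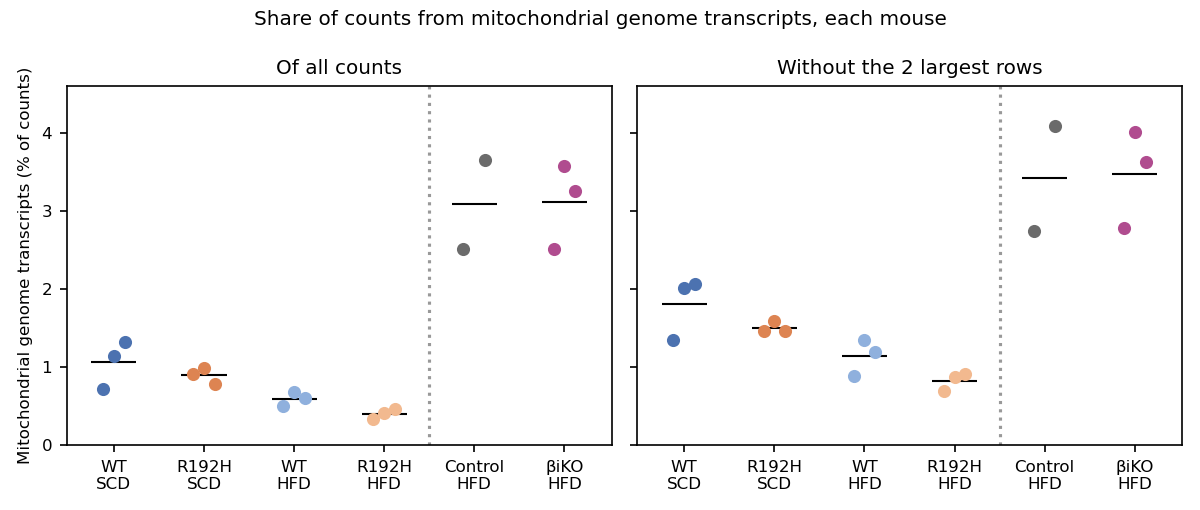
Share of counts from the 37 mitochondrial genome transcripts (y axis, percent) in each mouse (points) by group (x axis), with group means as lines, of all counts (left) and without the 2 rows with the most counts in each table (right), which are the 2 unnamed rows in the first table and Ins2 and Iapp in the second. WT, wildtype; R192H, *Pax4* R192H; the dotted line separates the 2 tables, which were not compared. *Pax4* R192H mice on HFD sit lowest in the first table on the left, overlap with wildtype mice on HFD on the right, and control and βiKO mice overlap.

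Within the mitochondrial counts, a few transcripts dominated. mt-Co1, which encodes the catalytic core of cytochrome c oxidase (complex IV), held 82.9% to 92.7% of the mRNA counts in the first table and 80.6% to 87.2% in the second. With the counts of near-identical nuclear copies, described below, added to each mRNA, it held 53.7% to 64.1% and 52.2% to 56.0%. The rRNAs held 29.1% to 50.1% of mitochondrial counts in the first table and 48.3% to 59.1% in the second, nearly all of it as mt-Rnr2, the large-subunit rRNA. mt-Rnr2 had 21.6 to 41.3 counts for each count of mt-Rnr1, the small-subunit rRNA, in the first table, and 13.4 to 17.5 in the second. Whether and how rRNA was depleted is not given in the sources used here.

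All 22 tRNAs, which are 59 to 75 bases long, were listed at 0 counts in all 12 mice of the first table. Their identifiers were not analysed in the second table. By counting error alone, a count of 0 allows a share of up to 3 counts, or 1.2e-05% of the shallowest library. The reads described in the paper were longer than these tRNAs, so the 0 counts cannot bound how abundant they were. mt-Nd4l, a subunit of complex I (NADH dehydrogenase), was also at 0 in all 12 mice, whereas its identical copy Gm10222 had 21 to 74 counts. The low-count filter kept 14 of the 37 genes in the first table. Of the 37, 15 were analysed in the second table, and the filter removed none of them.

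The chromosome 1 copies held 34.7% to 40.2% of the combined counts of the mitochondrial mRNAs and their near-identical copies in the first table, and 36.4% to 40.3% in the second. Gm28437 had 30993 to 97769 counts in the first table, and mt-Co3, a core subunit of complex IV, had 1 to 12210. Gm28661 had 10620 to 20874 counts, and mt-Co2, another core subunit of complex IV, had 0 to 1450. Both copies were above their mitochondrial gene in every mouse of both tables. The other 10 matching models, at 90.7% to 97.6% identity, reached at most 10.4 counts in the first table and 249.7 in the second.

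The division between gene and copy varied between mice for mt-Atp6 and mt-Nd3. The copy of mt-Atp6, Gm10925, held 0%, 19.0% and 68.8% of the pair's counts in wildtype and 94.1%, 59.1% and 59.4% in *Pax4* R192H mice on SCD, and had at most 1 count in each of the 6 mice on HFD. In the second table, also on HFD, it held 35.9% to 62.0%. Gm28438, the copy of mt-Nd3 (complex I), held 36.0%, 37.5% and 60.2% of the pair's counts in *Pax4* R192H mice on SCD and 0%, 21.6% and 13.6% on HFD. In wildtype mice it held 0%, 33.4% and 40.6% on SCD and 21.8%, 19.8% and 0% on HFD, which overlapped. The copy of mt-Co1, which covers only 31.3% of that gene, held 2.90% to 10.1% of the pair's counts in all 17 mice.

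**Figure D2:**
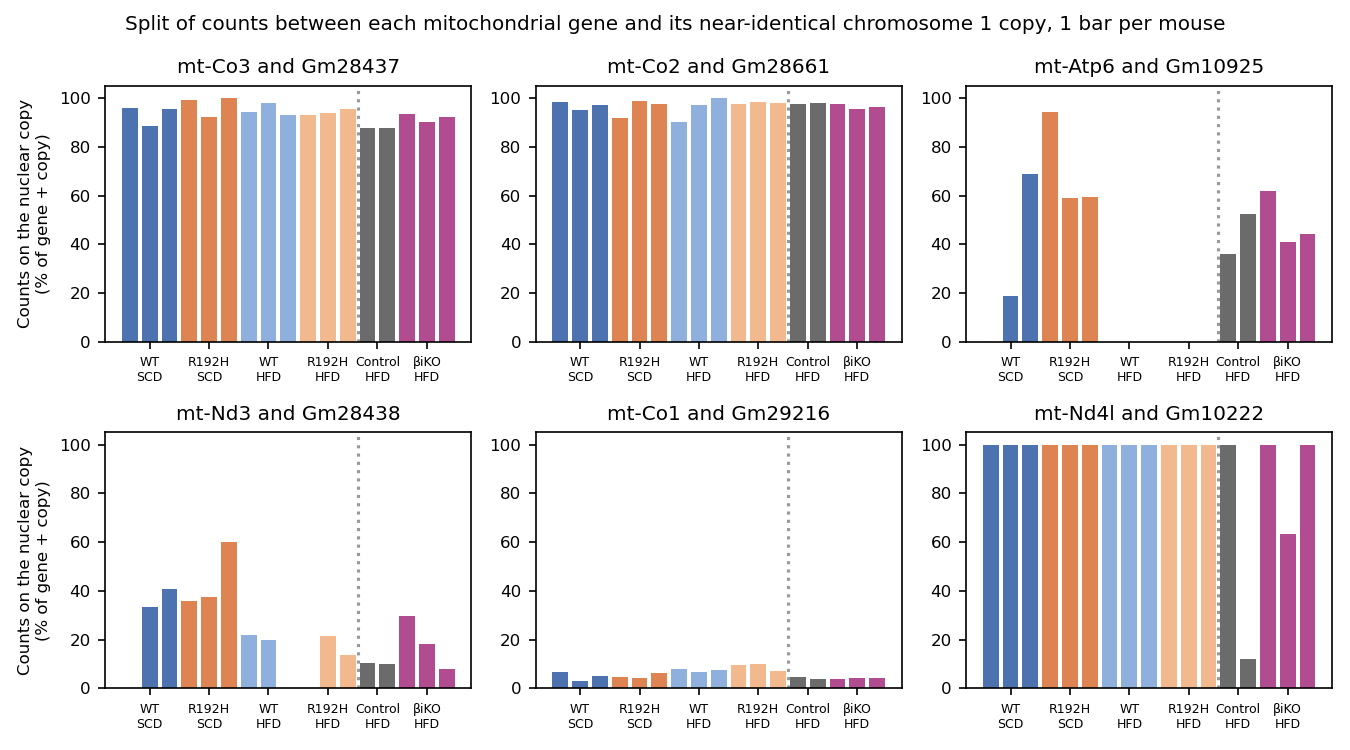
Counts assigned to the near-identical nuclear copy as a percentage of the counts of gene plus copy (y axis), 1 bar per mouse in replicate order within each group (x axis), for 6 pairs. Bars for mt-Co3 and mt-Co2 stand above 87% in every mouse, and bars for mt-Atp6 are at or near 0 in the 6 HFD mice of the first table.

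Because of this division, each mitochondrial gene was also summed with its copy, an alternative chosen after the values were seen. For mt-Co2, deposited counts of 0 to 1450 became 10777 to 21490, a range of 1.99-fold over the 12 mice. mt-Co3 went from 1 to 12210 counts to between 33230 and 106477, a range of 3.20-fold. mt-Nd3 had 542 to 3819 counts alone, a range of 7.05-fold, and 1361 to 4313 summed, a range of 3.17-fold.

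Per length, after summing, the order of levels was led by complex IV subunits and mt-Rnr2. Full gene lengths were used, without correction for fragment length. This can understate short genes such as mt-Atp8 (204 bases), mt-Nd4l (297) and mt-Nd3 (348), so their places in the order are uncertain. In the first table the highest levels, in CPM (counts per 1e+06 counts of the scaled library total) per kilobase, were those of mt-Co1 (median 2615, range 1846 to 3205), mt-Co3 (2208, 1517 to 3642) and mt-Rnr2 (1555, 804 to 3205), whose ranges overlapped. mt-Co2 followed at 670.003 (535 to 792), apart from mt-Rnr2 above and mt-Nd3 below (243, 149 to 379). From mt-Nd3 downwards, through mt-Atp6, mt-Rnr1, mt-Nd1, mt-Cytb, mt-Nd4, mt-Nd5, mt-Atp8, mt-Nd2 and mt-Nd4l to mt-Nd6 (2.30, 1.18 to 7.60), every pair of neighbours overlapped in range. mt-Nd6, the only mRNA of the opposite strand, had the lowest median there.

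In the second table the order was led by mt-Rnr2 (median 11025, range 7762 to 11665 CPM per kilobase), mt-Co3 (9045, 7657 to 9944) and mt-Co1 (8173, 7457 to 8821), again with overlapping ranges, and mt-Co2 came next at 2690.2 (2355 to 3114). mt-Nd4l (7.53) and mt-Nd6 (13.6) were at the bottom. mt-Cytb, the mitochondrial subunit of complex III, had rank 9 in both tables, with medians of 67.3 and 282.

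**Figure D3:**
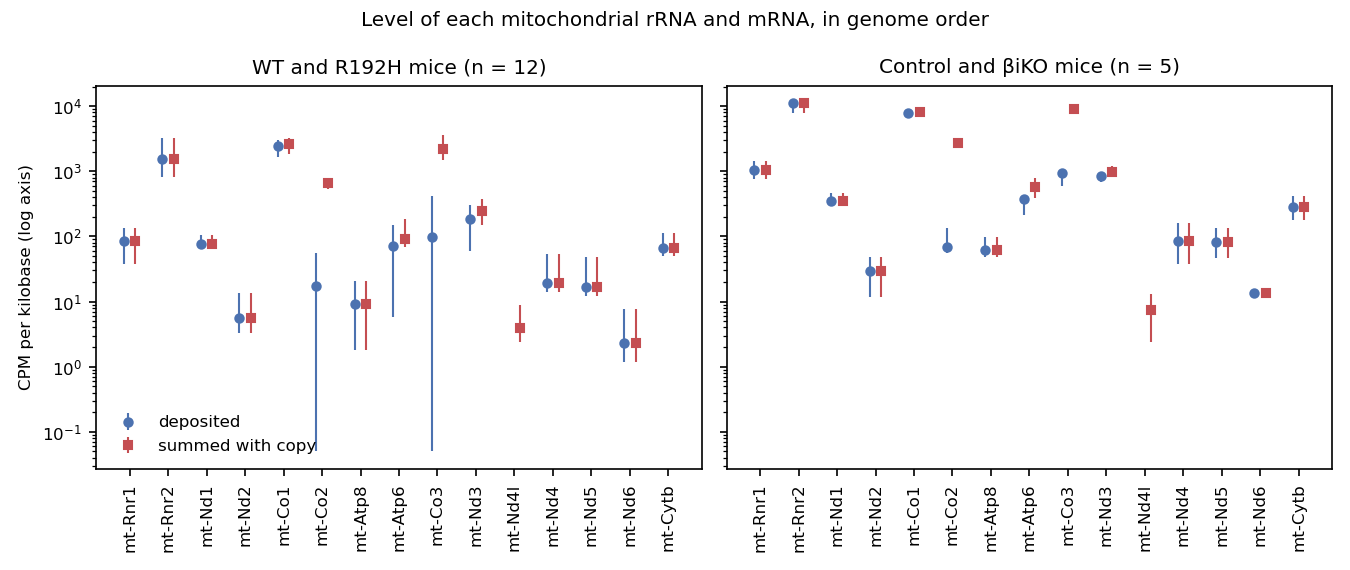
Median level (points) and range over mice (whiskers) of each mitochondrial rRNA and mRNA in CPM per kilobase (y axis, log scale), in order along the genome (x axis), with each gene as deposited (circles) and summed with its nuclear copy (squares). Genes with a median of 0 are not drawn, and a range that goes below 0.05 is drawn down to 0.05. Summing moves mt-Co3 from far below mt-Co1 to near it, and mt-Co2 to a level that stays below mt-Co1.

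Comparing *Pax4* R192H with wildtype mice on SCD addressed the effect of the allele without dietary stress. No mitochondrial gene passed the test (edgeR, adjusted p below 0.05 and a log2 fold change beyond 0.5), and 0% of the 19137 tested genes did. At an unadjusted p below 0.05 there were 3 of 14, all lower (mt-Atp6, mt-Nd3 and mt-Nd6), against 3.29% of all genes, or 2.19% counting lower ones, and DESeq2 called none (0.0993% of all genes). Of the 14 estimates 12 were below 0, against 50.7% of all genes. The median log2 fold change of the 12 tested mRNAs was -0.21 (-0.78 to -0.034 with 1 mouse left out), and that of all genes was 0.00. mt-Nd6, a complex I subunit, measured 1.28, 3.94 and 1.96 CPM in wildtype and 1.19, 0.737 and 0.802 CPM in *Pax4* R192H mice. The groups were apart by a narrow margin, as they were for mt-Nd3 (4.22% of all genes were lower without overlap), with a log2 fold change of -1.39 (SE 0.58, adjusted p = 1) that was -0.83 without the second wildtype mouse. These were 21 to 147 counts per mouse. mt-Nd6 overlaps mt-Nd5 by 14 bases on the opposite strand, and the strand setting of the counting is not given in the sources used here.

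mt-Atp6 measured 47.1, 103 and 30.0 CPM in wildtype and 3.94, 24.6 and 41.8 CPM in *Pax4* R192H mice on SCD, and the groups overlapped. Its log2 fold change was -1.36 (SE 0.58) alone and -0.23 (SE 0.28) summed with its copy. With 1 mouse left out the value alone ran from -2.07, without the third *Pax4* R192H mouse, to -0.72, without the second wildtype mouse, and was -0.85 without the first *Pax4* R192H mouse. mt-Co3 measured 73.1, 327 and 108 CPM in wildtype and 14.1, 159.6 and 0.0382 CPM in *Pax4* R192H mice, the last from a single count. Its log2 fold change went from -1.55 (SE 1.14) to -0.23 (SE 0.21) on summing, with a 95% interval of -0.69 to 0.22. The value alone ran from -4.53 without the second *Pax4* R192H mouse to -0.64 without the second wildtype mouse, and was -0.96 without the third *Pax4* R192H mouse. For mt-Nd3 it went from -0.76 (SE 0.29) to -0.41 (SE 0.22), and the value alone was -0.45 without the third *Pax4* R192H mouse. None of these passed the test either way.

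On HFD, comparing *Pax4* R192H with wildtype mice again called none of the 14 genes, against 2.28% of all genes, and none had an unadjusted p below 0.05 (15.9% of all genes did) or was called by DESeq2 (5.25% of all genes). None of the 14 was without overlap between the groups, against 22.9% of all genes (9.89% lower), and 8 estimates were below 0, against 51.4%. mt-Co1 measured 2677, 3854 and 3388 CPM in wildtype and 2579, 2963 and 3136 CPM in *Pax4* R192H mice, which overlapped. Its log2 fold change was -0.19 (SE 0.17, 95% interval -0.55 to 0.17), and it was -0.32 without the first wildtype mouse, -0.07 without the second and -0.11 without the first *Pax4* R192H mouse. mt-Rnr2 measured 1271, 3299 and 2701 CPM in wildtype and 1721, 2387 and 2012 CPM in *Pax4* R192H mice, a log2 fold change of -0.25 (SE 0.33). The lowest value was that of a wildtype mouse. mt-Nd6 was at 0.613, 1.19 and 1.77 CPM in wildtype and 2.93, 0.881 and 0.740 CPM in *Pax4* R192H mice, and mt-Atp6 at 66.3, 65.0 and 50.5 CPM and 58.6, 48.0 and 51.5 CPM, both with overlap. The median of the 12 tested mRNAs was -0.12, that of all genes was -0.01, and after summing the median of 13 mRNAs was -0.04. With 1 mouse left out, the median of the 12 ran from -0.23 to 0.066, so its sign was not stable. Without summing, the median was -0.35 (all genes 0.01) with the acinar covariate described below, and on library totals it was -0.50 (all genes -0.40). The interaction, which asks whether the genotype difference changed with diet, was called for none of the 14 genes, against 0.131% of all genes, with none at an unadjusted p below 0.05 (11.2% of all genes) and none by DESeq2 (1.81%). Of its 14 estimates 3 were below 0, against 50.8% of all genes. Its widest estimate was that of mt-Nd6 (1.73, SE 0.81, adjusted p = 0.448), which was 0.83 without the first *Pax4* R192H mouse on HFD.

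The HFD was compared with SCD within each genotype. In wildtype mice none of the 14 genes was called, against 0.371% of all genes, and DESeq2 called none (3.03%). At an unadjusted p below 0.05 there was 1 gene (15.2% of all genes, 8.37% counting lower ones), mt-Co1, which measured 4113, 4381 and 4701 CPM on SCD and 2677, 3854 and 3388 CPM on HFD. All 3 mice on HFD lay below all 3 on SCD, as for 9.46% of all genes, with a log2 fold change of -0.41 (SE 0.17, 95% interval -0.77 to -0.05, adjusted p = 0.263). mt-Rnr2 went from 2266, 4368 and 5071 CPM to 1271, 3299 and 2701 CPM, which overlapped, with a log2 fold change of -0.69 (SE 0.33). mt-Rnr1 went from 77.9, 106 and 131 CPM to 36.3, 81.2 and 91.0 CPM (-0.59, SE 0.30). Without the first wildtype mouse on HFD these values were -0.38 for mt-Rnr2 and -0.28 for mt-Rnr1, and without the third on SCD they were -0.43 and -0.38. Of the 14 estimates, 11 were below 0, against 48.9% of all genes.

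In *Pax4* R192H mice 1 of the 14 genes was called on HFD against SCD, where 15.7% of all genes were called, 9.75% higher and 5.91% lower. Unadjusted p-values below 0.05 were found for 2 of 14 (32.4% of all genes, 15.4% lower), groups without overlap for 3 (41.8%, 20.6% lower), and 9 estimates were below 0 (53.6%). The gene was mt-Nd3, which measured 53.4, 44.9 and 20.7 CPM on SCD and 69.4, 67.3 and 88.3 CPM on HFD, without overlap. It was 0.92 higher on the log2 scale (SE 0.29, adjusted p = 0.0451). Summed with its copy, mt-Nd3 measured 83.5, 71.8 and 51.9 CPM on SCD and 69.4, 85.9 and 102 CPM on HFD, which overlapped, and the log2 fold change was 0.31 (SE 0.22, adjusted p = 0.354). The call was also lost without any of 5 of the 6 mice, all but the first *Pax4* R192H mouse on SCD, while the log2 fold change stayed above 0, at 0.61 (without the third on SCD) to 1.21.

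mt-Co1 in *Pax4* R192H mice measured 4099.6, 3781 and 4326 CPM on SCD and 2579, 2963 and 3136 CPM on HFD. The groups did not overlap, and the log2 fold change of -0.49 (SE 0.17, 95% interval -0.85 to -0.13, adjusted p = 0.0578) did not pass the test, though DESeq2 called it (-0.50). mt-Co3 turned from 0.47 (SE 1.12) alone to -0.54 (SE 0.21, adjusted p = 0.0955) when summed with its copy. mt-Atp6 turned in the same way, from 1.18 (SE 0.58) to -0.54 (SE 0.29). Alone it was 0.70 without the first mouse on SCD and 1.88 without the third, and its copy held counts on SCD and none on HFD in these mice. mt-Rnr2 was at 2532, 3358 and 2368 CPM on SCD and 1721, 2387 and 2012 CPM on HFD, with overlap and a log2 fold change of -0.43 (SE 0.33), or -0.23 without the second mouse on SCD. mt-Rnr1 was at 61.5, 93.3 and 105.4 CPM on SCD and 79.7, 79.7 and 63.1 CPM on HFD, which overlapped.

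mt-Nd1 and mt-Cytb, of complexes I and III, have no near-identical copy. mt-Nd1 measured 66.9, 102 and 95.2 CPM in wildtype and 84.0, 69.7 and 91.4 CPM in *Pax4* R192H mice on SCD, and 66.6, 82.0 and 65.9 CPM and 72.7, 62.5 and 73.0 CPM on HFD. mt-Cytb measured 63.9, 122 and 83.3 CPM and 71.0, 57.9 and 131 CPM on SCD, and 79.0, 75.5 and 71.5 CPM and 88.2, 78.6 and 70.9 CPM on HFD in the same order of genotypes. Both overlapped in all 4 comparisons of groups. mt-Nd5 varied more between mice, at 23.9, 73.0 and 37.7 CPM and 29.6, 22.2 and 88.8 CPM on SCD and at 68.5, 30.8 and 25.5 CPM and 48.5, 25.4 and 29.1 CPM on HFD. The third *Pax4* R192H mouse on SCD had the highest level of mt-Nd5 and of mt-Cytb of the 12.

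mt-Atp8 measured 0.371, 4.18 and 3.52 CPM in wildtype and 1.5, 1.29 and 2.18 CPM in *Pax4* R192H mice on SCD, and 2.24, 3.24 and 1.17 CPM and 2.83, 1.43 and 1.23 CPM on HFD, with overlap throughout. mt-Nd2 lay between 3.44 and 14.0 CPM and mt-Nd4 between 19.0 and 73.3 CPM.

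Acinar genes, which mark exocrine tissue, differed between the groups. The mean log2 CPM of 31 acinar markers was 8.19 to 9.55 in *Pax4* R192H mice on HFD, the group with the lowest mitochondrial share of all counts, and 6.81 to 7.67 in the other 3 groups of the first table. With this mean as a covariate no mitochondrial gene was called in any comparison. The median of the 12 mRNAs in *Pax4* R192H mice on HFD against SCD went from -0.12 to -0.50. Without the covariate, that median already ran from -0.31 to 0.40 with 1 mouse left out. The part of the acinar RNA in these values was not tested further. Since the mean did not overlap between that group and the others, the covariate cannot be told apart from genotype and diet in comparisons with it. Calls lost under the covariate, here and in the gene lists below, carry this limit. The islet hormone genes were present in every mouse, with Ins2 at 14522 CPM or more and Gcg at 3857 CPM or more.

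**Figure D4:**
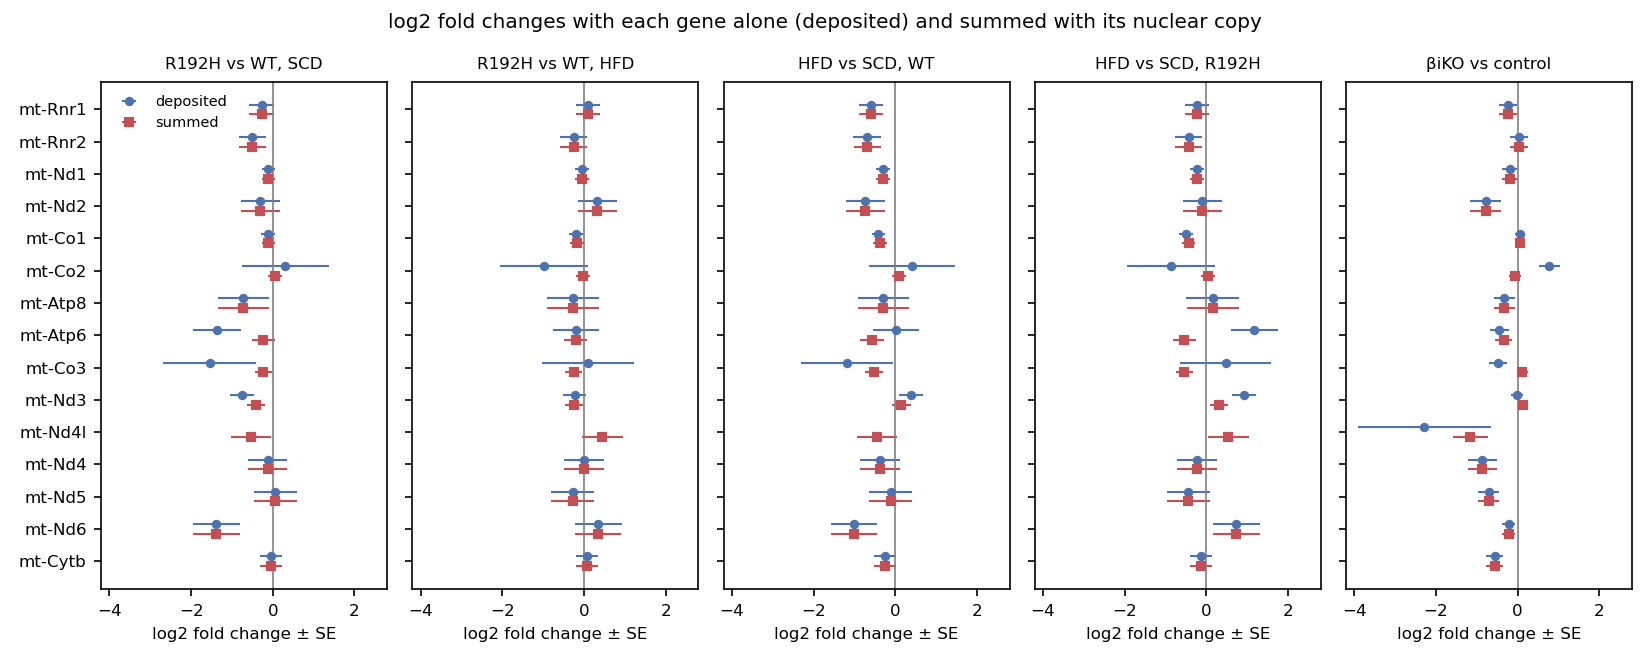
log2 fold change (x axis) with its standard error (bars) of each mitochondrial rRNA and mRNA (y axis) in 5 comparisons, for the gene as deposited (circles) and summed with its nuclear copy (squares). The wide bars of mt-Co2 and mt-Co3 in the first 4 panels narrow on summing, and mt-Atp6, mt-Co2 and mt-Co3 change sign in *Pax4* R192H mice on HFD against SCD. The sign also changes for mt-Co3 between genotypes on HFD, for mt-Atp6 in wildtype on HFD against SCD, and for mt-Co2, mt-Co3 and mt-Nd3 in *Pax4* βiKO mice.

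Loss of *Pax4* in adulthood was compared with controls in the second table. None of the 15 tested genes was called, against 0.0893% of all genes, and DESeq2 called none (1.20%). At an unadjusted p below 0.05 there were 4, of which mt-Nd4, mt-Nd5 and mt-Cytb were lower and mt-Co2 higher, where 12.8% of all genes had such a p and 6.62% were lower with it. The median log2 fold change of the 13 mRNAs was -0.45, against 0.01 for all genes, and 12 of 15 estimates were below 0, against 48.5% of all genes. The median was -0.17 without the second control, -0.59 without the second *Pax4* βiKO mouse and -0.32 after summing.

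The low p-values among complex I and III transcripts were all on the lower side. mt-Nd4 measured 119.5 and 220.3 CPM in controls and 109, 119 and 52.2 CPM in *Pax4* βiKO mice, a log2 fold change of -0.87 (SE 0.35, adjusted p = 0.374). mt-Nd5 measured 169.5 and 249 CPM in controls and 146, 152 and 85.8 CPM in *Pax4* βiKO mice (-0.71, SE 0.25, adjusted p = 0.315). mt-Cytb measured 342 and 469 CPM against 293, 323 and 206 CPM (-0.57, SE 0.20, adjusted p = 0.317). In all 3 genes, and in mt-Nd6 (7.25 and 7.72 CPM against 7.07, 6.29 and 6.01 CPM), every *Pax4* βiKO mouse was below both controls (for mt-Nd4 the log2 fold change ran from -1.24 without the first control to -0.35 without the second, for mt-Nd5 from -0.96 to -0.40 and for mt-Cytb from -0.78 to -0.32), while 16.7% of all genes were lower without overlap. Counting mt-Co2, 5 of 15 genes had no overlap, against 32.6% of all genes. mt-Nd1 measured 336 and 449 CPM against 340.1, 407 and 279 CPM, which overlapped (-0.20, SE 0.18).

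The abundant transcripts overlapped between the groups. mt-Co1 measured 11001 and 12132 CPM in controls and 12124, 13031 and 11125 CPM in *Pax4* βiKO mice, a log2 fold change of 0.06 (SE 0.12, 95% interval -0.21 to 0.34). mt-Rnr2 measured 12456 and 18454 CPM in controls and 12279, 17729 and 17442 CPM in *Pax4* βiKO mice (0.03, SE 0.21), and mt-Rnr1 880.4 and 1372 CPM against 736, 1137 and 998 CPM (-0.24, SE 0.23). mt-Co2 as deposited was higher, at 38.4 and 39.8 CPM in controls and 46.9, 93.4 and 59.6 CPM in *Pax4* βiKO mice (0.77, SE 0.26, adjusted p = 0.296), or 0.44 without the second *Pax4* βiKO mouse. Summed with Gm28661, it measured 1702 and 2130.2 CPM against 1840.1, 2067 and 1611 CPM, with overlap and a log2 fold change of -0.06 (SE 0.15). mt-Atp6 was at 252 and 251 CPM in controls and 148, 257 and 147 CPM in *Pax4* βiKO mice, and mt-Atp8 at 11.2 and 20.0 CPM against 12.4, 15.1 and 9.96 CPM (-0.32, SE 0.26). Acinar markers differed between mice here too, at a mean log2 CPM of 7.53 and 9.66 in the controls and 7.08 to 9.28 in *Pax4* βiKO mice.

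The nuclear genes that work with these transcripts were listed by role. The largest list was that of nuclear subunits of oxidative phosphorylation (OXPHOS). In *Pax4* R192H mice on HFD against SCD, 52 of 79 tested nuclear OXPHOS genes rose and 1 fell, where 9.75% of all genes were called higher and 5.91% lower, with a median of 0.65 against -0.06 for all genes. In the same comparison 28 of 31 acinar markers rose (median 1.84), and the part of acinar RNA in the following lists was not tested beyond the covariate. Ndufa1 of complex I rose from 19.7 to 24.7 CPM on SCD to between 52.3 and 67.1 CPM on HFD (1.39, SE 0.17, adjusted p = 0.00032). Atp5g1 of ATP synthase rose by 1.32 (SE 0.18), Cox5b of complex IV by 1.12 (SE 0.15) and Ndufb7 by 0.92 (SE 0.12). These directions hold relative to the other genes: with library totals as the scale the medians were -0.08 for OXPHOS genes and -0.79 for all genes, and 3 OXPHOS genes were called higher and 6 lower, against 46.7% of all genes called in either direction. With the acinar covariate the OXPHOS median was 0.81 and none was called.

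Of 78 mitoribosomal protein genes, 28 (35.9%) rose in the same comparison, against 9.75% of all genes, and none fell (median 0.46), among them Mrps12 (1.28, SE 0.22), Mrpl53 (0.94, SE 0.15), Mrpl17 (0.85, SE 0.15) and Mrpl28 (0.72, SE 0.14). With library totals none was called higher and 16 lower, with a median of -0.28, where 46.7% of all genes were called with a median of -0.79. With the acinar covariate none was called, and leaving out the third *Pax4* R192H mouse on SCD or the second or the third on HFD left 15, 13 and 17 called.

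The lists of mitochondrial RNA handling and DNA maintenance had 0% to 18.5% of their genes called in *Pax4* R192H mice on HFD against SCD, against 15.7% of all genes, so no list stood far above the background. With the acinar covariate 0.381% of all genes were called. The directions below hold relative to the other genes, whose median was -0.06 here and -0.79 on library totals. Of 18 stability and decay genes, Rexo2, an oligoribonuclease, rose by 1.10 (SE 0.19) and Tbrg4 rose by 0.78 (SE 0.20). Lrpprc, which binds and stabilises mitochondrial mRNAs, fell by 0.69 on the log2 scale (SE 0.13, adjusted p = 0.00382). Lrpprc was at 70.0 to 85.8 CPM on SCD and 43.7 to 54.5 CPM on HFD. Of 27 processing and modification genes 5 rose, including Elac2, which cuts tRNA 3′ ends (0.54, SE 0.17), and Pus1, Rcc1l and Hsd17b10 (0.59 to 0.66). Of 10 transcription genes only Mterf2 passed, and it fell (-1.12, SE 0.22). Of 17 genes of mitochondrial DNA maintenance, Exog rose (0.73, SE 0.15) and Rrm2b (-0.73, SE 0.11) and Slc25a36 (-0.64, SE 0.14) fell. None of 8 regulators of biogenesis passed.

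Of 22 genes listed for the charging of mitochondrial tRNAs, 13.6% were called in that comparison, against 15.7% of all genes. The list also holds Qrsl1, Gatb and Gatc, which are not synthetases, and Kars and Gars, which also serve the cytosol. Kars (0.83, SE 0.19) and Sars2 (0.94, SE 0.29) rose, and Lars2 was called with a log2 fold change of 6.53 (SE 1.91, adjusted p = 0.0323). Every *Pax4* R192H mouse on HFD was above every one on SCD, but the size of the change rested largely on the second mouse on HFD. Lars2 had 147, 132 and 242 counts on SCD and 775, 34550 and 764 counts on HFD in *Pax4* R192H mice. In wildtype mice it had 82, 12357 and 241 counts on SCD and 864 to 1209 counts on HFD.

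In *Pax4* R192H against wildtype mice on HFD, 2 nuclear OXPHOS genes rose, Ndufa1 (0.98, SE 0.17) and Atp5g1 (0.77, SE 0.17), and none fell, with a median of 0.32, where 1.46% of all genes were called higher and 0.82% lower and 11 of 31 acinar markers rose. With library totals that median was -0.05, that of all genes -0.40, and 1 gene was called in each direction (4.73% of all genes). DESeq2 called 8 higher and 1 lower, against 5.25% of all genes in either direction, the acinar covariate left none, and the count was 4 without the second wildtype mouse on HFD, 0 without the second *Pax4* R192H mouse on HFD and 1 without any other mouse. No mitoribosomal gene was called (15 of 78 had an unadjusted p below 0.05, all higher, against 15.9% of all genes in either direction, and DESeq2 called 2). Lrpprc fell by 0.64 (SE 0.13) and Rrm2b by 0.61 (SE 0.11), and Exog rose by 0.74 (SE 0.15). With the acinar covariate none of the 19137 genes was called, these included, but the covariate cannot be told apart from the group here. This comparison shares the *Pax4* R192H mice on HFD with the comparison of diets above.

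In wildtype mice on HFD against SCD, Cox5b alone of the nuclear OXPHOS genes was called (0.81, SE 0.15), with a median of 0.26, where 0.204% of all genes were called higher by edgeR. DESeq2 called 8, against 3.03% of all genes. On SCD, edgeR and DESeq2 called no nuclear OXPHOS or mitoribosomal gene between the genotypes (0% and 0.0993% of all genes), and none had an unadjusted p below 0.05 (3.29% of all genes). In *Pax4* βiKO mice edgeR called none either. The median of 80 nuclear OXPHOS genes was 0.20 there, against 0.01 for all genes, with 34 higher and 1 lower at an unadjusted p below 0.05 (12.8% of all genes, 6.62% lower), and DESeq2 called 1 in each direction (1.20% of all genes). Of 78 mitoribosomal genes 11 were higher at that p, with a median of 0.14, and DESeq2 called none.

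**Figure D5:**
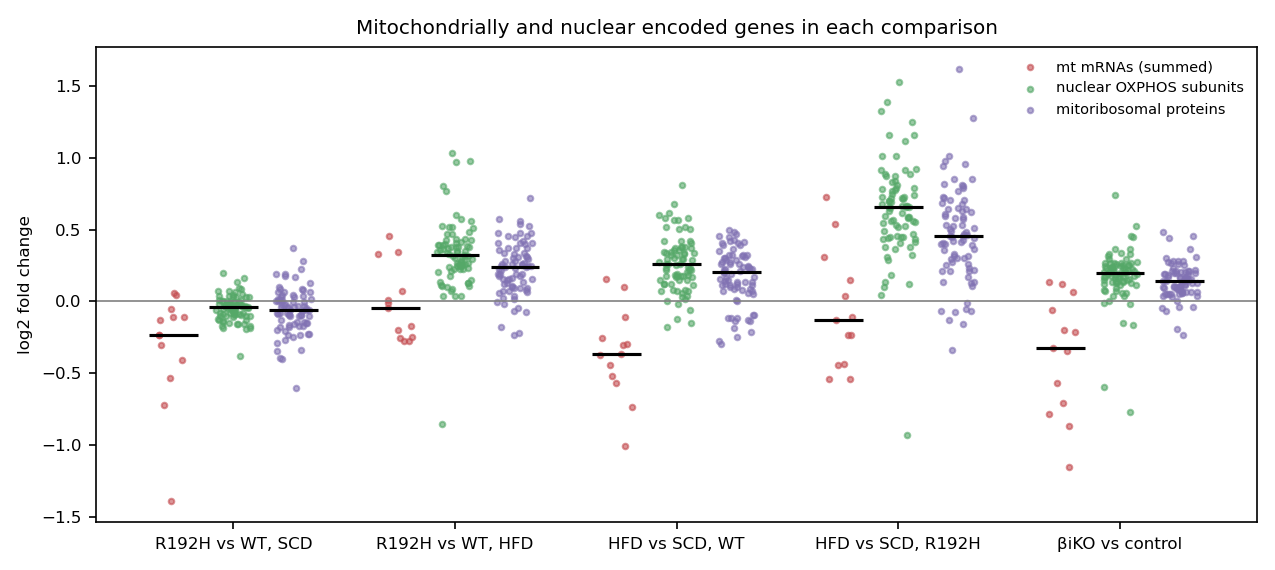
log2 fold change (y axis) of mitochondrial mRNAs summed with their copies, nuclear OXPHOS subunits and mitoribosomal protein genes in 5 comparisons (x axis), 1 point per tested gene with the median as a line. In *Pax4* R192H mice on HFD against SCD the nuclear OXPHOS median is 0.65 and the mitochondrial mRNA median -0.13, on the trimmed-mean scale. On library totals, not drawn, the medians are -0.08 for nuclear OXPHOS genes, -0.80 for the mitochondrial mRNAs without their copies and -0.79 for all genes.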

How the data were processed

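Total RNA of isolated islets was extracted with TRIzol and prepared with a stranded total RNA kit. The authors aligned reads with STAR 2.7.1 to mm10 and deposited expected counts per gene from RSEM 1.3.3, which divides reads that fit several genes between them by estimation. The annotation release is not given in the sources used here. Symbols came from GENCODE M21, which matched 65.8% and 66.7% of the identifiers in the 2 tables.

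Counts were rounded, filtered (filterByExpr, minimum count 10), scaled by TMM and tested with edgeR 4.0.16 (quasi-likelihood, R 4.3.3), fitting all groups of a table, with Benjamini-Hochberg adjustment over all genes of a table. CPM used these scaled totals. A call required an adjusted p below 0.05 and a log2 fold change beyond 0.5 in either direction. Nuclear copies were sought with blastn 2.17.0. DESeq2 1.42.0, other scalings, filters and models, and leaving out each mouse were alternatives. The procedure was tested on simulated data. Members shown in every mouse were those called, mt-Rnr1, mt-Rnr2, mt-Co1, mt-Nd1, mt-Nd5, mt-Nd6, mt-Cytb, mt-Atp6 and mt-Atp8; others shown so were chosen after their values were seen. Of each nuclear list, the called genes were named, up to 4 by lowest p. The members and gene lists were chosen with earlier results of these data known.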

Additional observations from a re-analysis of the deposited data

How the results depend on the processing

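The number of mitochondrial genes called depended most on the low-count filter and on scaling. Without a filter, 3 genes were called in *Pax4* R192H against wildtype mice on SCD (mt-Atp6, mt-Co3 and mt-Nd3, all lower; 0.655% of all genes), 1 on HFD (mt-Co2; 3.21%), 3 in the interaction (1.78%), 2 in wildtype on HFD against SCD (2.32%), 3 in *Pax4* R192H mice on HFD against SCD (9.58%) and 6 in *Pax4* βiKO mice (1.80%). In *Pax4* R192H mice on HFD against SCD, library totals gave 5 calls, all lower (mt-Rnr1, mt-Rnr2, mt-Nd1, mt-Co1 and mt-Cytb), with a median of -0.80 for the mRNAs, but 46.7% of all genes were then called and their median was -0.79. A minimum of 10 counts in every mouse gave 2 calls (21.2% of all genes), DESeq2 gave 2 (mt-Co1 joined mt-Nd3; 18.8%), and the acinar covariate and the sum with nuclear copies, chosen after the values were seen, gave 0. The replicate block gave 0, and the same-numbered mice correlated at -0.30 to 0.19 in the first table and 0.04 to 0.07 in the second, so their numbers were not taken as pairs. Leaving out 1 mouse left 0 to 1 call there, and 0 in the other 5 comparisons.

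The median of the mRNAs moved between -0.78 and -0.034 on SCD, between -0.23 and 0.066 on HFD, between -0.49 and 0.097 in wildtype on HFD against SCD, between -0.59 and -0.17 in *Pax4* βiKO mice, and between -0.31 and 0.40 in *Pax4* R192H mice on HFD against SCD, when 1 mouse was left out; the extremes of -0.78 and 0.40 came without the third *Pax4* R192H mouse on SCD. The interaction median went from 0.29 to -0.13 on library totals, where all genes had -0.47, and to -0.11 with the acinar covariate, and ran from -0.031 (without the second wildtype mouse on SCD) to 0.62 (without the third *Pax4* R192H mouse on SCD) with 1 mouse left out. The 28 log2 fold changes of mitochondrial genes that were recomputed are a selection. Outside the 28, the sign also turned on summing for mt-Co2 in *Pax4* R192H mice and mt-Atp6 in wildtype on HFD against SCD. It also turned for mt-Co3 between genotypes on HFD, and for mt-Co3 and mt-Nd3 in *Pax4* βiKO mice. Of the 28, the sign turned in 6 of 294 values under the other settings. After summing it turned for mt-Atp6 (-0.54) and mt-Co3 (-0.54) in *Pax4* R192H mice on HFD against SCD and mt-Co2 in *Pax4* βiKO mice (-0.059). Otherwise it turned for mt-Co3 on library totals (-0.36), and for mt-Rnr2 in *Pax4* βiKO mice with the replicate block (-0.039) and the acinar covariate (-0.14). It turned in 9 of 171 values with 1 mouse left out: in *Pax4* βiKO mice, mt-Co1 (range -0.0049 to 0.14), mt-Rnr1 (-0.52 to 0.12), mt-Rnr2 (-0.22 to 0.34), mt-Nd1 (-0.39 to 0.030) and mt-Atp8 (-0.68 to 0.16), and in the first table mt-Rnr2 on HFD between genotypes (-0.56 to 0.038) and mt-Co3 in *Pax4* R192H mice between diets (-0.11 to 3.49). With 2 controls, each *Pax4* βiKO value rests on few mice.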
